A study of Mus musculus with 4 samples.

Results

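The genes described here are those of the mouse potassium, calcium, sodium, Trp and chloride channel families, taken by symbol (Kcn, Cacn, Scn, Trpc, Trpm, Trpv, Clcn and Hcn), with 2 potassium channel genes left out of the set. There were 164 such genes among the 53397 in the table, and all 164 were found by gene identifier in the GENCODE vM21 annotation. The wild type embryos were taken at E8.5, when the posterior epiblast builds the trunk, and at E7.5, before trunk formation begins, and RNA was measured in this region. Each stage had 2 libraries, each made with SMART-Seq2 from total RNA of pooled dissected tissue, and the size of the pools is not given in the sources used here. No allele or treatment was involved at either stage, so the comparison is between ages of the same region, and a dissected region holds several cell types.

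Ion channels are proteins that let chosen ions cross a membrane. A channel of the voltage-gated kind has a pore-forming alpha subunit and accessory subunits that set how much of it reaches the membrane and how fast it opens and closes. Potassium channels share a short loop of the pore, the selectivity filter, and fall into voltage-gated (Kv), inward-rectifying (Kir), leak (K2P) and calcium- or sodium-activated classes. Trp channels pass cations, several of them calcium or magnesium, and the Clcn family joins chloride channels of the cell surface with chloride-proton exchangers of endosomes and lysosomes. Many of these genes are best known from neurons, heart and kidney.

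The codons that carry the potassium filter are shown for 4 of the potassium channel pore genes that changed at least 2-fold between the stages, because this loop makes them members of one superfamily even where the families differ. They were read from GENCODE vM21 transcripts, 5′ to 3′, and the capitals mark the codons of the filter signature.
Kcna2, coding positions 1114 to 1140: atgacaACTGTAGGCTATGGAgacatg
Kcns3, coding positions 1102 to 1128: atgaccACAGTGGGCTATGGAgacacc
Kcnh7, coding positions 1873 to 1899: ctaaccAGTGTAGGATTTGGAaatgtg
Kcnj3, coding positions 421 to 447: gaggccACCATCGGCTATGGCtaccgc

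All 4 of these genes were lower at E8.5. Of the potassium pore genes past 2-fold whose codons are not shown, Kcnj15 was lower (log2 fold change -1.45) and Kcnn3 was higher (1.09). The direction is thus not shared by all genes with this filter.

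Values are normalized read counts, that is, reads of a gene divided by a factor of its library, and 1 read was worth between 0.0507 and 0.0562. Reads assigned to genes numbered 18488218 and 18515565 at E8.5 and 19111464 and 19493342 at E7.5. Mitochondrially encoded genes took 3.55% to 3.7% of the total value at E8.5 and 3.86% to 4.31% at E7.5. The 100 most abundant genes took 39.9% in E7.5 replicate 1 and 33.4% to 34.4% in the other 3 libraries. Markers of the posterior epiblast and streak were present at both stages, with a summed value of 965 and 929 at E8.5 and 1140 and 1160 at E7.5 and with 3 of 10 higher at E8.5 and 6 lower. Lists of cell type markers moved between the stages too. The summed value of 14 visceral endoderm markers was 549 and 554 at E8.5 and 3010 and 2930 at E7.5, with 12 of the 13 tested lower at E8.5, and Apoc2 had no reads at E8.5. That of 12 endothelial markers was 293 and 270 at E8.5 and 92.9 and 92.6 at E7.5, with 11 of 12 higher, and that of 10 primitive erythroid markers was 423 and 427 at E8.5 and 20.1 and 19.3 at E7.5, with 7 of 8 tested higher and with Hba-x and Hbb-y at 0 reads at E7.5. Surface ectoderm markers summed to 536 and 549 at E8.5 and 780 and 731 at E7.5 (3 of 9 higher, 4 lower), and node and notochord markers to 59.6 and 59.6 at E8.5 and 83.5 and 83.7 at E7.5 (2 of 8 higher, 5 lower). The part of these lists in the channel results was not tested. In pooled tissue, fewer cells of a type and less RNA per cell cannot be told apart.

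Most channel genes were scarcely read. Of the 164, 53 reached a value of 1 in 2 libraries and were tested, and 111 did not, of which 54 had fewer than 16 reads over the 4 libraries, including 11 with no reads at all. The median value of the tested channel genes was 2.37, against 18.4 for all 13903 genes tested, and 44 of the 53 (83.0%) had a mean value under 10, against 37.9% of all genes tested. The summed value of the whole set was 524 and 531 at E8.5 and 512 and 523 at E7.5. Clcn3, Trpm7 and Clcn5 made up 51.1% of the sum over all libraries, and the 10 genes of highest value 73.6%. These values, and those below unless said otherwise, are not scaled by gene length.

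Per kilobase of exon, the leak potassium channel gene Kcnk1 stood first, with means of 10.2 at E8.5 and 13.2 at E7.5. The length used is that of the merged exons of all annotated transcripts of a gene. It was 2.24 kb for Kcnk1, 11.45 kb for Clcn5 and 17.07 kb for Clcn3. This length can exceed that of any single transcript, which lowers the level of such a gene, so the order depends on it. Trpm7, a cation channel fused to a kinase, followed with 9.26 at E8.5 and 7.36 at E7.5. The endosomal exchanger genes Clcn5 (5.92 at E8.5 and 7.48 at E7.5) and Clcn3 (6.82 at E8.5 and 4.46 at E7.5) came next, ahead of the lysosomal Clcn7 (3.89 at E8.5 and 5.71 at E7.5). Clcn3 and Clcn5 changed places between the stages, with Clcn3 the higher of the pair at E8.5 and Clcn5 at E7.5. No Kv pore gene other than Kcng1, at 1.89 at E8.5 and 1.33 at E7.5, was among the 10 highest.

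**Figure D1:**
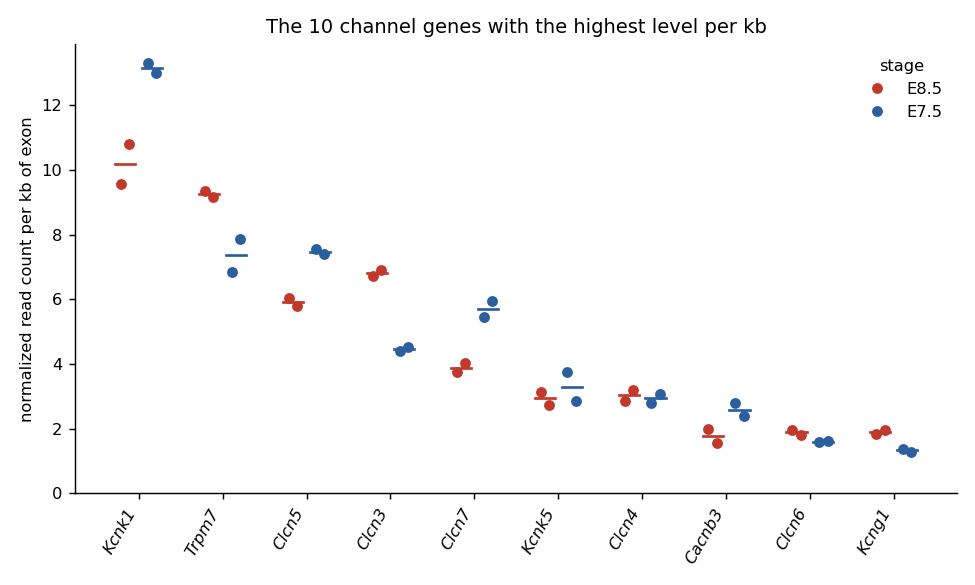
Normalized read count per kilobase of exon (y axis) for the 10 channel genes with the highest mean on this scale (x axis), with 1 point per library and a bar at the mean of 2 libraries, E8.5 in red and E7.5 in blue. Kcnk1 had means of 10.2 at E8.5 and 13.2 at E7.5, and the points of Clcn3 lie higher at E8.5 while those of Clcn5, Clcn7 and Kcnk1 lie lower.

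To find which channel genes differed between the stages, the log2(value + 1) of every gene was compared in limma, and genes at an adjusted p under 0.05 were called. In the tested set 13 genes were higher at E8.5 (24.5%) and 17 were lower (32.1%), while 23 were not called. Over all genes tested, 25.6% were called higher and 26.4% lower, so the share of channel genes called lower was slightly above that of all genes and the share called higher was close to it. With at least a 2-fold change, 5 channel genes were higher (9.43%) and 8 were lower (15.1%), against 4.48% and 6.35% of all genes tested. Low genes made such calls more often, and among the 5272 genes tested with a mean value under 10 the shares were 7.09% higher and 11.2% lower. The median log2 fold change was -0.08 in the channel set and -0.007 over all genes. Of the 53, 7 passed the filter only through their E8.5 values and 6 only through their E7.5 values, so these 13 had to differ to some extent. Of the genes past 2-fold, Kcnip1, Kcne3 and Kcnn3 passed only through E8.5 and Cacng8 and Kcna2 only through E7.5. Without the genes that overlap another gene, 32 were tested, 10 higher and 9 lower, with 4 and 4 past 2-fold, so the larger number of lower genes was not seen there. The libraries of a stage are separate biological replicates in the study's methods. An exact permutation test of a single gene with 2 libraries against 2 cannot go below p = 0.333.

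**Figure D2:**
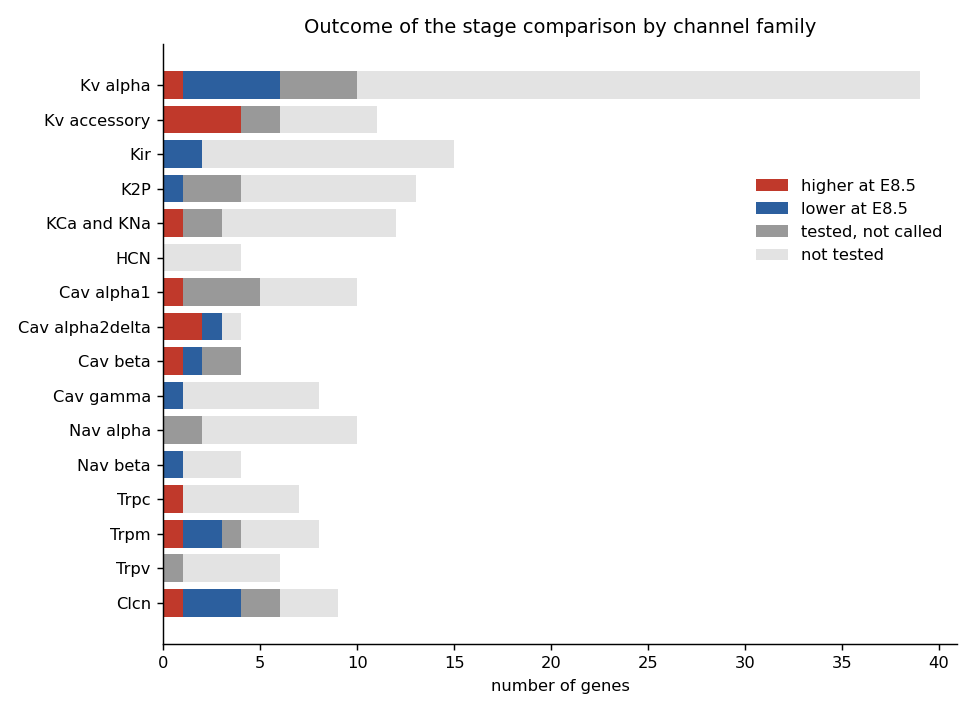
Number of genes (x axis) in each of 16 channel families (y axis), split into those higher at E8.5 (red), lower at E8.5 (blue), tested but not called (dark grey) and not tested (light grey). Of 39 Kv alpha genes 10 were tested, 1 higher and 5 lower, while 4 of the 6 tested Kv accessory genes were higher and none was lower. Of these tested genes, 3 Kv alpha passed the filter only through E7.5 and 1 only through E8.5, and 2 accessory only through E8.5.

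Genes for voltage-gated potassium channels were called in both directions. Of the 39 genes for pore-forming Kv alpha subunits, 10 were tested, 1 was higher at E8.5 and 5 were lower, 3 of them at least 2-fold, and their summed value was 29.3 and 33.6 at E8.5 and 43.8 and 44.4 at E7.5. Of the 11 genes for accessory Kv subunits, 6 were tested, 4 were higher at E8.5, 3 of them at least 2-fold, and none was lower. The summed value of the 11 was 20.4 and 20.3 at E8.5 and 12.1 and 11.9 at E7.5. The 5 not tested, named here after their values were seen, include genes with fewer reads at E8.5. Kcne1 had 6 reads at E8.5 and 48 at E7.5, Kcnab3 had 11 and 44, and Kcnip4, whose libraries overlap, had 16 and 32. Kcne2 had 1 read at each stage and Kcne4 had none. With no filter, Kcne1 was called lower at E8.5 (limma adjusted p = 0.044). Of the tested Kv alpha genes, 3 passed the filter only through E7.5 and 1 only through E8.5, and 2 accessory genes passed only through E8.5. The filter thus set part of the direction in both kinds. Over all genes tested, 25.6% were called higher and 26.4% lower. The difference between the 2 kinds of gene was not itself tested.

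Among the pore genes, Kcna2, which encodes a shaker-type delayed rectifier of axons (ENSMUSG00000040724.5, chr3:107101146-107115005), had values of 0.367 and 0.574 at E8.5 and 3.09 and 3.35 at E7.5. Its log2 fold change was -1.52 (SE 0.18, limma adjusted p = 4.2e-06), and by reads it was 6.85-fold higher at E7.5 (95% exact counting interval 4.15 to 11.9), but it passed the filter only through E7.5, where it is high. Kcns3 (chr12:11090202-11151056) encodes an alpha subunit that forms no channel alone and joins other alpha subunits, and it had values of 1.84 and 1.72 at E8.5 and 5.06 and 5.73 at E7.5 (log2 fold change -1.20, SE 0.16, limma adjusted p = 2.3e-05). Kcnh7, of the ether-a-go-go related family (chr2:62693414-63184287), had values of 2.15 and 2.56 at E8.5 and 5.45 and 6.59 at E7.5 (log2 fold change -1.06, SE 0.17, limma adjusted p = 8.3e-05). Kcnh7 shares 696 bp of exon with Gca on the opposite strand, whose values were 1.73 and 1.25 at E8.5 and 8.09 and 7.51 at E7.5, and the protocol does not keep the strand, so their reads cannot be told apart there. Kcnh5, another ether-a-go-go gene, had values of 0.577 and 0.313 at E8.5 and 1.74 and 1.32 at E7.5, a fall by 0.81 on the log2 scale (limma adjusted p = 0.0021), and it passed the filter only through E7.5.

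The Kv alpha gene of the highest value went the other way. Kcng1, which like Kcns3 encodes an electrically silent partner of other alpha subunits, had values of 8.24 and 8.82 at E8.5 and 6.24 and 5.78 at E7.5 (log2 fold change 0.44, SE 0.14, limma adjusted p = 0.017). This call was lost without E8.5 replicate 2 (log2 fold change 0.40, limma adjusted p = 0.098) and without E7.5 replicate 2 (0.40, limma adjusted p = 0.086).

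The accessory genes that were higher at E8.5 come from 3 protein families. Kcnip1 and Kcnip2 encode calcium-binding proteins that attach to the inside of Shal-type Kv channels and raise their surface level. Kcnip1 (chr11:33629339-33993152) had values of 2.26 and 2.61 at E8.5 and 0.281 and 0.101 at E7.5, a log2 fold change of 1.53 (SE 0.18, limma adjusted p = 5.3e-06) and a read ratio of 13.0 (95% exact counting interval 6.08 to 33.3). Kcnip2 (chr19:45791839-45816061) had values of 2.52 and 4.54 at E8.5 and 1.29 and 1.12 at E7.5, with the E8.5 libraries well apart from each other (log2 fold change 1.0, SE 0.21, limma adjusted p = 0.00089). Kcne3 (chr7:100176502-100184869), a single-span subunit that holds its partner channels open in epithelia, had values of 3.15 and 2.30 at E8.5 and 0.169 and 0.406 at E7.5 (log2 fold change 1.53, SE 0.19, limma adjusted p = 8.9e-06). Its read ratio was 9.28 (95% exact counting interval 4.98 to 19.2). Kcnip1 and Kcne3 passed the filter only through E8.5, and at E7.5 they had 7 and 11 reads in all. Kcnab1, the cytoplasmic beta subunit with the highest value of the family, had values of 7.45 and 6.84 at E8.5 and 3.65 and 4.21 at E7.5 (log2 fold change 0.73, SE 0.15, limma adjusted p = 0.0011).

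Of the 15 inward-rectifier genes only 2 were tested, and both were at least 2-fold lower at E8.5. Such calls made up 6.35% of all genes tested and 11.2% of those with a mean value under 10. The 13 not tested had few reads, some of them more at E8.5 and some fewer. Kcnj15 (chr16:95257558-95300260), a rectifier of kidney and other epithelia, had values of 1.68 and 0.835 at E8.5 and 5.23 and 4.87 at E7.5 (log2 fold change -1.45, SE 0.19, limma adjusted p = 1.8e-05). Kcnj3 (chr2:55435970-55598145) encodes a subunit of the channel that G protein beta-gamma subunits open, and it had values of 1.10 and 2.71 at E8.5 and 3.88 and 6.09 at E7.5. Its libraries varied within both stages, and its log2 fold change of -1.07 (SE 0.24, limma adjusted p = 0.0018) was not called without E7.5 replicate 2 (-0.80, limma adjusted p = 0.059). Both genes overlap exons of an antisense or long noncoding gene that was not analysed here.

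The 2 potassium channel genes of highest value, Kcnk1 and Kcnk5, are leak channels of the K2P family. Kcnk1, which gives a weak background potassium current, had values of 21.4 and 24.2 at E8.5 and 29.7 and 29.2 at E7.5 (log2 fold change -0.36, SE 0.10, limma adjusted p = 0.0065), and the call was lost without E8.5 replicate 1 (-0.27, limma adjusted p = 0.097). Kcnk5, an alkali-activated leak channel, had values of 10.7 and 9.35 at E8.5 and 12.8 and 9.74 at E7.5, which overlap (limma adjusted p = 0.43). Among the 12 calcium- and sodium-activated genes, Kcnn3 (chr3:89520164-89675132), a small-conductance channel opened by calcium through calmodulin, had values of 1.99 and 3.39 at E8.5 and 0.562 and 0.862 at E7.5 (log2 fold change 1.09, SE 0.20, limma adjusted p = 0.00041). It passed the filter only through E8.5, and with no filter it was not called (limma adjusted p = 0.054). Kcnt2, a sodium-activated channel and the highest of this class, had values of 2.73 and 3.50 at E8.5 and 3.54 and 4.62 at E7.5 (limma adjusted p = 0.17). None of the 4 pacemaker Hcn genes was tested, and their summed value was 1.15 and 1.20 at E8.5 and 1.85 and 1.37 at E7.5.

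**Figure D3:**
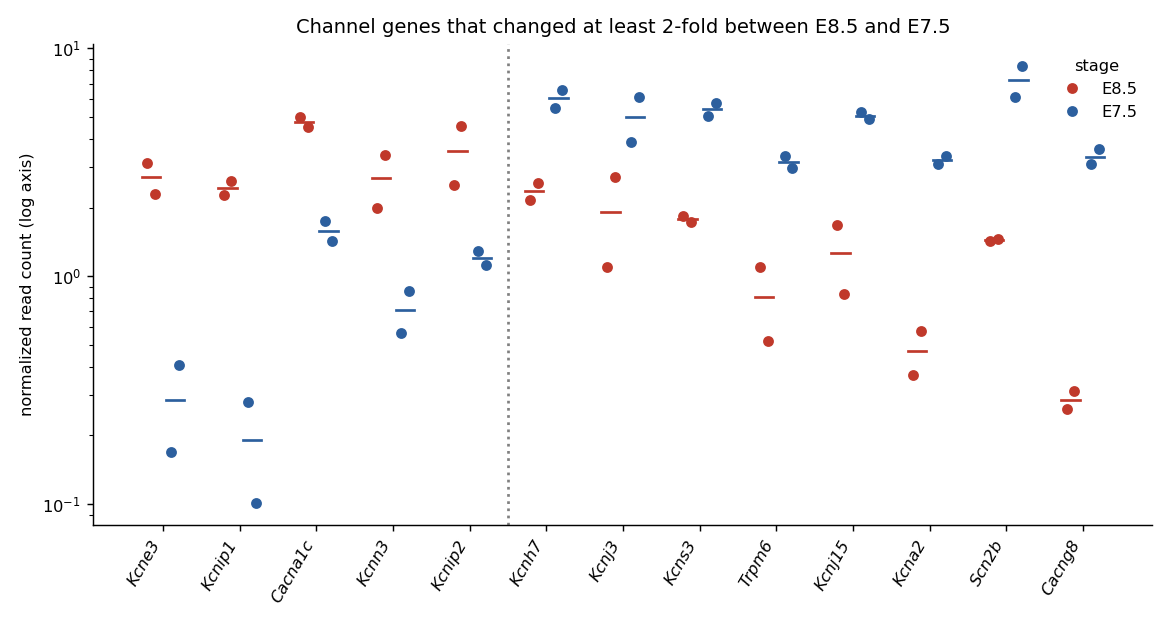
Normalized read count on a log axis (y axis) of the 13 channel genes called with at least a 2-fold change (x axis), with 1 point per library and a bar at the mean of 2 libraries, E8.5 in red and E7.5 in blue. The 5 genes left of the dotted line were higher at E8.5 and the 8 right of it were lower.

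Calcium channel genes changed in the pore, in the extracellular subunits and in the cytoplasmic ones. Cacna1c (chr6:118587240-119196418), the pore of the L-type channel of heart and smooth muscle, had values of 4.99 and 4.49 at E8.5 and 1.74 and 1.42 at E7.5 (log2 fold change 1.15, SE 0.17, limma adjusted p = 4.2e-05), and was the 1 gene called of 5 pore genes tested. Cardiac muscle markers summed to 12.9 and 12.8 at E8.5 and 32.8 and 28.8 at E7.5, and none of the 6 tested was higher. Their part in the change of Cacna1c was not tested. The neuronal pore gene Cacna1b had values of 3.20 and 4.23 at E8.5 and 3.82 and 2.38 at E7.5, which overlap (limma adjusted p = 0.38).

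The alpha2delta subunits sit outside the membrane and carry the pore to the surface. Cacna2d1 had the highest normalized count of the calcium channel genes, 14.9 and 13.3 at E8.5 and 5.96 and 7.91 at E7.5 (log2 fold change 0.94, SE 0.15, limma adjusted p = 8.7e-05). Cacna2d3 had values of 1.42 and 1.15 at E8.5 and 0.112 and 0.203 at E7.5 (log2 fold change 0.98, SE 0.18, limma adjusted p = 0.00035), a read ratio of 8.02 (95% exact counting interval 3.43 to 22.9), and passed the filter only through E8.5. Cacna2d2, which passed only through E7.5, moved the other way, with values of 0.315 and 0.679 at E8.5 and 1.29 and 1.32 at E7.5 (log2 fold change -0.63, limma adjusted p = 0.01), and was not called without E8.5 replicate 1 (-0.46, limma adjusted p = 0.11).

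Beta subunits bind the pore from inside the cell, and all 4 genes were tested. Cacnb2 had values of 1.57 and 2.30 at E8.5 and 0.450 and 0.964 at E7.5 (log2 fold change 0.79, limma adjusted p = 0.0042), and passed the filter only through E8.5. The highest of them, Cacnb3, had values of 7.98 and 6.27 at E8.5 and 11.2 and 9.53 at E7.5 (log2 fold change -0.49, limma adjusted p = 0.013). Neither call stood without E8.5 replicate 2 (Cacnb2 0.61, limma adjusted p = 0.057, and Cacnb3 -0.34, limma adjusted p = 0.14) or without E7.5 replicate 1 (Cacnb2 0.57, limma adjusted p = 0.066, and Cacnb3 -0.38, limma adjusted p = 0.14). Of the 8 gamma genes, Cacng8 alone was tested. It is known as an auxiliary subunit of AMPA-type glutamate receptors more than of calcium channels (chr7:3390683-3415648), and it had values of 0.262 and 0.313 at E8.5 and 3.09 and 3.60 at E7.5. It passed the filter only through E7.5. Its log2 fold change was -1.75 (SE 0.18, limma adjusted p = 9.3e-07), and its reads were 11.7-fold higher at E7.5 (95% exact counting interval 6.30 to 24.0).

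Of the 14 sodium channel genes 3 were tested. The 2 pore genes among them tested were not called, and Scn8a, the higher of them and a pore of neuronal axons, had values of 7.03 and 7.62 at E8.5 and 6.80 and 5.98 at E7.5 (log2 fold change 0.17, SE 0.15, limma adjusted p = 0.34). Scn2b (chr9:45117782-45130070) encodes a single-span beta subunit with an immunoglobulin-like fold that binds the pore and other cells, and it had values of 1.42 and 1.46 at E8.5 and 6.13 and 8.37 at E7.5. Its log2 fold change was -1.74 (SE 0.18, limma adjusted p = 1e-06), and its reads were 5.07-fold higher at E7.5 (95% exact counting interval 3.79 to 6.91). Markers of neural plate and neurons summed to 61.9 and 62.4 at E8.5 and 85.5 and 80.2 at E7.5, with 2 of 7 tested higher and 4 lower and with Neurog2 at 0 reads at E7.5, and their part in the changes of neuronal channel genes was not tested.

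Of the 8 Trpm genes 4 were tested, 1 higher and 2 lower at E8.5, where 25.6% of all genes tested were called higher and 26.4% lower. The 2 magnesium-permeable Trpm channels went in opposite directions. Trpm7, the second highest value of the set, had 106 and 104 at E8.5 and 77.7 and 89.0 at E7.5 (log2 fold change 0.33, SE 0.07, limma adjusted p = 0.0015). Trpm6 (chr19:18749983-18892511), the magnesium uptake channel of gut and kidney, had values of 1.10 and 0.522 at E8.5 and 3.37 and 2.99 at E7.5 (log2 fold change -1.22, SE 0.19, limma adjusted p = 8.2e-05). Trpm1, named here after its values were seen, was also lower (log2 fold change -0.74, SE 0.20, limma adjusted p = 0.0059). It was not called with DESeq2 (adjusted p = 0.066). Trpc1, a broadly expressed cation channel, had values of 2.26 and 2.25 at E8.5 and 0.955 and 0.710 at E7.5 (log2 fold change 0.83, SE 0.18, limma adjusted p = 0.0011), and it passed the filter only through E8.5. Trpv6, a calcium-selective channel of absorptive epithelia, was not called (log2 fold change -0.08, limma adjusted p = 0.71). Visceral endoderm, whose markers were lower at E8.5, is an absorptive epithelium, and the part of this in the epithelial genes Trpm6 and Kcnj15 was not tested.

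Chloride channels and exchangers had the largest summed normalized count of the families, not scaled by length, of 245 and 249 at E8.5 and 232 and 238 at E7.5. Clcn3 rose to 115 and 118 at E8.5, against 75 and 77.3 at E7.5 (log2 fold change 0.60, SE 0.06, limma adjusted p = 1.8e-06). Clcn5, its close relative in early endosomes, had 69.3 and 66.4 at E8.5 and 86.4 and 84.9 at E7.5 (log2 fold change -0.33, SE 0.07, limma adjusted p = 0.00078). Clcn7, the lysosomal exchanger, had 19.8 and 21.3 at E8.5 and 28.8 and 31.5 at E7.5 (log2 fold change -0.53, SE 0.10, limma adjusted p = 0.00036).

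Clcn4 and Clcn6, also of endosomes, were not called (limma adjusted p = 0.76 and 0.19). Of these exchangers 1 was therefore higher, 2 were lower and 2 were not called, where 25.6% of all genes tested were called higher and 26.4% lower. The summed value of the family differed little. Clcn2, a chloride channel of the cell surface named here after its values were seen, had 3.83 and 4.02 at E8.5 and 6.69 and 6.90 at E7.5 (log2 fold change -0.66, SE 0.15, limma adjusted p = 0.0019). It shares 82 bp of exon with Polr2h, whose values were 77.6 and 72.9 at E8.5 and 85.7 and 88.3 at E7.5.

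**Figure D4:**
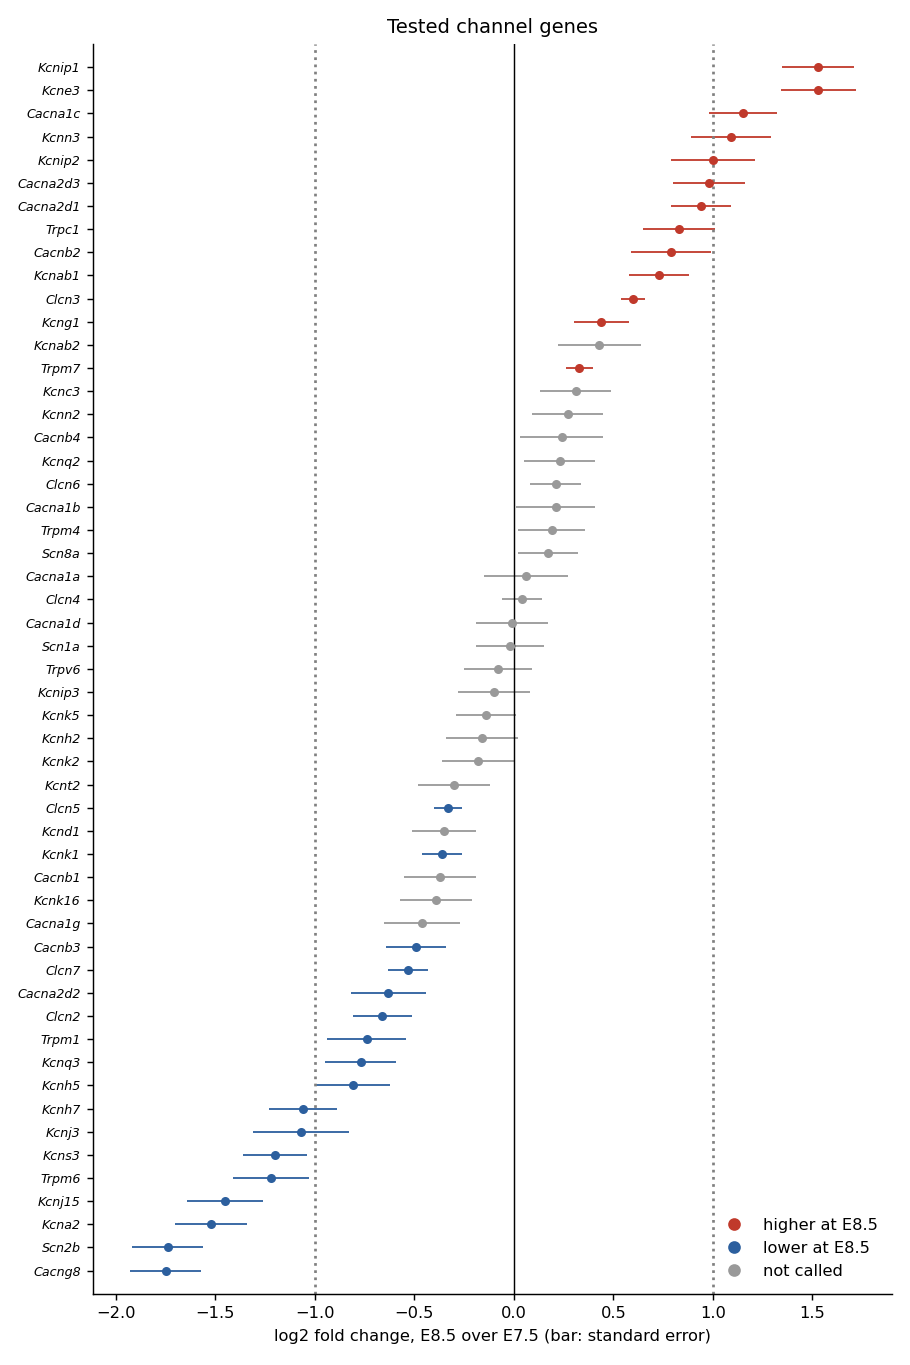
Log2 fold change of E8.5 over E7.5 on the log2(value + 1) scale (x axis, bars are standard errors) for the 53 tested channel genes (y axis), with genes higher at E8.5 in red, lower in blue and not called in grey, and dotted lines at a 2-fold change. The values run between -1.75 for Cacng8 and 1.53 for Kcnip1 and Kcne3.

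The 111 genes below the filter were not tested, and the highest of them, Cacng7 and Clcn1, had mean values of 1.07, while Cacna2d3, at 1.42 and 1.15 at E8.5, passed with the lowest mean of those tested. A few had reads in both libraries of 1 stage and none in the other. At a floor of 3 reads over both libraries of a stage, Kcnc1, a fast-spiking Kv channel of neurons, was at least 6.45-fold lower at E8.5, with 0 reads at E8.5 and 19 at E7.5. Kcnh4, of the ether-a-go-go-like channels, and the T-type calcium channel gene Cacna1i each had 0 reads at E8.5 and 16 at E7.5, at least 5.43-fold lower at E8.5. The rectifier gene Kcnj6 (0 reads at E8.5 and 11 at E7.5) and the leak channel gene Kcnk4 (0 at E8.5 and 10 at E7.5) were at least 3.74-fold and 3.40-fold lower at E8.5. Kcnu1, a large-conductance channel of sperm, had 5 reads at E8.5 and 0 at E7.5, at least 1.64-fold higher at E8.5. Kcnj8 had 0 reads at E8.5 and 3 at E7.5, for which no fold is given. With no filter on low values, 11 of the untested genes were called by limma, 4 higher at E8.5 and 7 lower. Those higher include, named here after their values were seen, the leak channel gene Kcnk10, with 40 reads at E8.5 and 1 at E7.5 (ratio 39.3, 95% exact counting interval 6.65 to 1590), and the sodium channel gene Scn7a, with 24 reads at E8.5 and 3 at E7.5 (ratio 7.85, 2.38 to 40.7). These bounds and the read intervals above cover counting error only.

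Promoters are shown for 3 genes that changed, to set a gene higher at E8.5, Kcnip2, beside 2 that were lower, Kcna2 and Kcnj15. The windows run from 250 bases before to 50 after the start site in RefSeq on GRCm38.p6, and capitals mark the motifs searched on both strands: the TATA box as TATAAA, the GC box as GGGCGG, the box recognised by nuclear factor Y as CCAAT, the core bound by Cdx factors as TTTATNG, and part of the site of the neuronal repressor REST as TTCAGCACC.
Kcnip2 (chr19:45816014-45816313, minus strand): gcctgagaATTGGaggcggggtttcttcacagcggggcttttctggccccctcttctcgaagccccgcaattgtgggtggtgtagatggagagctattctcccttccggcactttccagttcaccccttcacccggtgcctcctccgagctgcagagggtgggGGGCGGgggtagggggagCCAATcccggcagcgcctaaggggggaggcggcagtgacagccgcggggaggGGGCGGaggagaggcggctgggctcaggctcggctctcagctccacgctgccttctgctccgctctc
Kcna2 (chr3:107101317-107101616, plus strand): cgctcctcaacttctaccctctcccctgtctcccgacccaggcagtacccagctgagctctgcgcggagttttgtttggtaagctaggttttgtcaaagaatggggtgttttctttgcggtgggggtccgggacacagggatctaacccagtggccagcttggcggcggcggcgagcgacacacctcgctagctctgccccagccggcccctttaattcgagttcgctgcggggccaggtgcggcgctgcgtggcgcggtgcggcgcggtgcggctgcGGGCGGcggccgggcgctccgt
Kcnj15 (chr16:95257308-95257607, plus strand): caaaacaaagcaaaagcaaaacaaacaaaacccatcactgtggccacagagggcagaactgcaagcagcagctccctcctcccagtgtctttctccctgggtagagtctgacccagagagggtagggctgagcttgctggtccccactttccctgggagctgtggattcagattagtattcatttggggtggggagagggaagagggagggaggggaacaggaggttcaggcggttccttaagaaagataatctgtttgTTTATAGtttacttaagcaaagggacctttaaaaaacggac

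The window of Kcnip2 holds 18 CpG dinucleotides, 2 GC boxes and 2 CCAAT boxes, that of Kcna2 holds 31 CpG and 1 GC box, and that of Kcnj15 holds 2 CpG and a TATAAA on the minus strand that overlaps TTTATNG on the plus strand. Of the 125 channel genes with a RefSeq window, 68 (54.4%) held GGGCGG, against 35.7% of all 32851 windows. CCAAT was found in 40 (32.0%) against 37.4%, TATAAA in 14 (11.2%) against 13.6%, TTTATNG in 9 (7.2%) against 10.9% and TTCAGCACC in 1 (0.8%) against 0.371%. Some genes have several windows and so more chances to hold a motif, and a match is a description of the letters alone. Of the 13 genes with at least a 2-fold change, 8 held GGGCGG and 7 held CCAAT.

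The other ion transport genes of the same table, in 6 lists, give the background for the channels. Of 178 genes 108 were tested, and 27 were higher at E8.5 (25.0%) and 43 were lower (39.8%), with a median log2 fold change of -0.16, against 25.6% and 26.4% of all genes tested. Past 2-fold, 6 were higher (5.56%) and 21 were lower (19.4%), against 4.48% and 6.35%. Calcium release and store-operated entry had 7 higher (26.9%) and 11 lower (42.3%) of 26 tested, with Orai2, a pore of store-operated entry, at 1.13 and Micu2, a gatekeeper of the mitochondrial calcium uniporter, at 0.87, and with the lysosomal channel gene Mcoln2 at -1.37 and the inositol trisphosphate receptor gene Itpr3 at -1.28 (log2 fold changes). Pumps and exchangers had 6 higher (17.6%) and 14 lower (41.2%) of 34 tested, among them Atp1b2, a beta subunit of the sodium pump, at 2.83 and 2.35 at E8.5 and 12.9 and 13.1 at E7.5, and Fxyd2, a regulator of the same pump, at 0.367 and 0.783 at E8.5 and 7.08 and 5.63 at E7.5, while the sodium-calcium exchanger gene Slc8a3 was higher, at 4.20 and 4.23 at E8.5 and 0.955 and 1.01 at E7.5. Other chloride and anion channels had 5 higher (25.0%) and 8 lower (40.0%) of 20 tested, with Lrrc8b, a subunit of the volume-regulated anion channel, at 21.9 and 18.6 at E8.5 and 6.97 and 7.86 at E7.5, and Clic6 at 14.0 and 14.4 at E8.5 and 57.1 and 56.0 at E7.5. Other cation channels had 1 higher (8.33%) and 5 lower (41.7%) of 12 tested, with P2rx4, an ATP-gated channel, at 5.40 and 5.27 at E8.5 and 14.3 and 15 at E7.5, and channel partners had 2 higher (33.3%) and 2 lower (33.3%) of 6. Gap junction and pannexin genes had 6 higher (60%) and 3 lower (30%) of 10 tested, with the vascular connexin genes Gja4 (5.35 and 5.27 at E8.5 and 1.01 and 0.761 at E7.5) and Gja5 (3.15 and 3.55 at E8.5 and 0.225 and 0.406 at E7.5) higher and the epithelial Gjb2 (1.36 and 2.40 at E8.5 and 12.1 and 12.5 at E7.5) lower.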

How the data were processed

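The authors dissected posterior epiblasts, isolated total RNA from pooled tissue and made SMART-Seq2 libraries, sequenced as single-end reads and aligned to mm10 with STAR. The paper names DESeq2 and the sample notes name edgeR for the normalization, and the counting program is not given in the sources used here. The deposited signal values are reads per gene divided by a library factor, since 100% of them were whole multiples of 1 read within 0.0001 reads.

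Stages were compared on log2(value + 1) with limma 3.58.1 (R 4.3.3), using lmFit and a trended eBayes, over the 13903 of 53397 genes that reached a value of 1 in 2 or more libraries, with Benjamini-Hochberg adjustment over all of them, 2 residual and 12.8 prior degrees of freedom. Fold changes on this scale understate the change of low genes. Genes were called at an adjusted p under 0.05, and as 2-fold where the log2 fold change was also 1 or more in size. Read ratios carry exact 95% counting intervals, and where a stage had none, 3 reads stood for its 2 libraries.

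The text names genes called with a 2-fold change, the 10 tested genes of highest mean value, the highest of each family, untested genes with reads in both libraries of 1 stage and none in the other, up to 5 genes 2-fold in edgeR 4.0.16 alone, and up to 2 changed genes in each direction of a related list. The channel genes and the lists were chosen with earlier results of these data known. Alternatives were the pseudocount, the filter, the scaling, edgeR, DESeq2 1.42.0, the variance trend, a replicate block, each library left out and overlapping genes left out. Positions, exon lengths and coding sequences came from GENCODE vM21, and promoters from RefSeq on GRCm38.p6. Some sequences are not reported here.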

Additional observations from a re-analysis of the deposited data

How the results depend on the processing

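The counts of channel genes called, 13 higher and 17 lower, stayed within 1.5 times under the other pseudocounts, no filter, median-of-ratios scaling, edgeR, DESeq2, no variance trend and the replicate block. With DESeq2, Cacnb3, Kcng1 and Cacna2d2 were not called (adjusted p = 0.055, 0.077 and 0.11). With a value of at least 5 in 2 libraries 17 genes were tested, 5 higher and 8 lower, with 0 and 3 past 2-fold. Leaving out genes that overlap another gene left 32 tested, 10 higher and 9 lower, with 4 and 4 past 2-fold. The 2-fold counts of 5 higher and 8 lower depended most on the scale. Higher genes numbered 9 at a pseudocount of 0.1, 0 at a pseudocount of 4, 3 of 153 with no filter, and 9 each with edgeR and DESeq2 on reads. Lower genes numbered 1 at a pseudocount of 4. All 13 genes past 2-fold in limma were so in edgeR, which added Cacna2d1, Cacna2d3, Cacnb2 and 1 more among the higher and Cacna2d2, Kcnh5 and 2 more among the lower.

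Without each library in turn, 12 to 13 channel genes were higher and 15 to 16 lower, 4 to 7 and 6 to 8 past 2-fold, with a median log2 fold change of -0.149 to 0.007, and 19 to 24 genes of the related lists were higher and 39 to 42 lower. The related lists gave 16 higher with no filter, and 15 higher and 26 lower at a value of at least 5. Among the channel genes named, directions reversed only for genes not called: Clcn4 was -0.04 without E8.5 replicate 2 and -0.02 without E7.5 replicate 1, Kcnk5 ranged over -0.32 to 0.04 with the high end without E7.5 replicate 1, and Cacna1b over -0.04 to 0.47 with the low end without E7.5 replicate 2. The cause was not tested. Without a filter, 10 tested channel genes lost their call, Kcnn3, Kcnj3, Kcnip2 and Trpm7 among them (limma adjusted p = 0.054, 0.12, 0.076 and 0.054), and 11 untested ones gained one, 4 higher and 7 lower. The correlation of the deviations of same-numbered libraries was -0.00246, which gives no sign of pairing but cannot exclude a shared preparation. With the replicate number as a block, 13 channel genes were higher and 18 lower, 5 and 8 past 2-fold. In the related lists, 28 genes were higher and 44 lower with this block. Most channel genes have few reads, which limits the size of change that could be called.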
